A study of Homo sapiens with 4 samples.

Results

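Mitochondrial complex I was followed through the 46 genes whose symbols name it in a table of transcript levels from HEK293T, a long-established human cell line of embryonic kidney origin. The genes were taken by symbol alone, as NDUF followed by A, B, C, S, V, AB or AF and a number, and are 46 of the 38972 rows of the table. They divide into 38 subunit genes and 8 assembly factor genes (the NDUFAF genes). By their titles, 2 libraries are labelled as overexpressing RNase H1 (oeRNH1), the enzyme that cuts the RNA strand of RNA-DNA hybrids, and 2 as overexpressing Flag (oeFlag), an epitope tag, as the control. The labels state neither the vector, promoter and duration of overexpression nor whether the 2 replicates of a group were separate cultures. P-values therefore measure the spread between these libraries, which may be technical.

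Complex I, NADH:ubiquinone oxidoreductase, is the entry point of electrons into the respiratory chain. Its peripheral arm in the mitochondrial matrix oxidises NADH at a flavin and passes the electrons along iron-sulfur clusters to ubiquinone, and its membrane arm pumps protons. The core subunits are shared with bacteria and carry out the catalysis. Some of them are encoded by mitochondrial DNA and were not analysed here. The other, supernumerary subunits surround the core and are needed for assembly or stability, and assembly factors help to build the enzyme without staying in it.

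Values are TPM, each transcript's length-scaled share of its library, so levels of different genes can be set side by side but sequencing depth is unknown and neither fewer cells nor less RNA per cell can be seen or told apart. The columns summed to between 998901 and 998955 TPM. RNASEH1 itself was not higher in the libraries labelled oeRNH1, at 29.93 and 29.67 TPM against 32.09 and 32.8 TPM in those labelled oeFlag (log2 fold change -0.12 ± 0.06, SE, limma adjusted p = 0.260), so groups are called by their labels and every direction is that of the libraries labelled oeRNH1 relative to those labelled oeFlag. The kidney developmental factor LHX1 was listed between 5.7 and 6.6 TPM and PAX2 between 1.29 and 1.86 TPM over the 4 libraries. The blood cell markers PTPRC and CD3E and the basal keratin KRT5 were at or below 0.07 TPM in every library. The fibroblast collagen COL3A1 was at most 0.59 TPM, COL1A1 lay between 14.14 and 18.64 TPM, and the epithelial marker EPCAM had 4.33 and 2.18 TPM under oeRNH1 and 1.51 and 2.32 TPM under oeFlag. IRS4, a signalling adaptor abundant in this line, was lower, with 106.57 and 99.86 TPM under oeRNH1 and 216.94 and 217.96 TPM under oeFlag (limma adjusted p = 0.00223).

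The starts of 5 of these genes are shown because they are the 3 called members with the lowest log2 fold changes, NDUFV1, NDUFAF8 and NDUFA13, and 2 members that were not called, the core subunit NDUFS7 and the assembly factor NDUFAF5. These 5 were chosen after their values were seen. The 2 not called were also taken from members that hold the NRF1 or YY1 letters explained below. Motifs in those 2 sequences are therefore no result. Each sequence runs 5′ to 3′ from 200 bases before the start to 30 bases after it, on the plus strand of GRCh38.p14 (RefSeq). They lie at chr11:67606736-67606965, chr17:81239111-81239340, chr19:19516025-19516254, chr19:1383707-1383936 and chr20:13784828-13785057. Capitals mark exact matches, on either strand, to letters found in the sites of 4 kinds of factor: GCGCATGC for NRF1, a regulator of respiratory chain genes, CCGGAAG for ETS factors such as GABPA, AAGATGGC for YY1, and CACGTG for E-box factors. The capitals GCATGCGC are the NRF1 letters on the opposite strand, and GCGCATGCGC holds them on both strands, overlapping.
NDUFV1: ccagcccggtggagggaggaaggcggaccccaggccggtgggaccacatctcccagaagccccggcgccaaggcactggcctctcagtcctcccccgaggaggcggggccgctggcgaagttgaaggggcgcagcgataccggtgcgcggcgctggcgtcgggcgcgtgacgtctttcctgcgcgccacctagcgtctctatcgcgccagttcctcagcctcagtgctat
NDUFAF8: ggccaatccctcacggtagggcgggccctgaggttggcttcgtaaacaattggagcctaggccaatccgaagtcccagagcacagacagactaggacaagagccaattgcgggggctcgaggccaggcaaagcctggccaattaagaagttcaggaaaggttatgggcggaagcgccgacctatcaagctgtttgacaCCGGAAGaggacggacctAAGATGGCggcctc
NDUFA13: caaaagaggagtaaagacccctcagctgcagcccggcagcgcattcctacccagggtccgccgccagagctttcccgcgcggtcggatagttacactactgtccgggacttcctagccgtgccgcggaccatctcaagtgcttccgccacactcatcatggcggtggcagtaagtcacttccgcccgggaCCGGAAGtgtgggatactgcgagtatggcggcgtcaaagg
NDUFS7: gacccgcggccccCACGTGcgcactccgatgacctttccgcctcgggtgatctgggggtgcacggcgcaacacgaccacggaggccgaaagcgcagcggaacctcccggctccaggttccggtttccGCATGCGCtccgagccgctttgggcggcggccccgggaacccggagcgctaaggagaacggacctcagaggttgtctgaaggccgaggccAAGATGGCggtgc
NDUFAF5: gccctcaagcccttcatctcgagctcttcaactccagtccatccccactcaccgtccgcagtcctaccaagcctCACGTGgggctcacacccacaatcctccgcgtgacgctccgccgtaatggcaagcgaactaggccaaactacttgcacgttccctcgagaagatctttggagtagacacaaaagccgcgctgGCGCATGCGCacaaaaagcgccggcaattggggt

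NDUFV1 held none of the 4 motifs in its RefSeq window of 250 bases before to 50 after the start, and the CCGGAAG of NDUFAF8 and of NDUFA13 began 2 and 10 bases before the start. The RefSeq starts used lay 1283, 72 and 489 bases from the GENCODE 29 starts of NDUFV1, NDUFAF8 and NDUFA13. Sequence around the GENCODE start of NDUFV1 was not searched. RefSeq windows were found for 39 of the 46 genes, 51 windows in all, since some genes have several starts. The NRF1 letters stood in 15.7% of these windows, against 4.64% of the windows of tested genes and 3.05% of all windows of this length. The YY1 letters stood in 17.6% of the members' windows, against 4.58% and 2.89%. In NDUFAF8, NDUFA9, NDUFS7, NDUFA6, NDUFS4, NDUFA7 and NDUFA3 the YY1 match began between 11 and 26 bases after the start. Positions were read in the window of each gene nearest to its GENCODE 29 start. In the other gene with the YY1 letters, NDUFB8, they stood in a different window, and their position was not used here. The ETS letters were no more frequent in the members' windows (15.7%) than in those of tested genes (16.3%), and CACGTG stood in 7.84% against 9.18%.

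The 8 members with the NRF1 letters were NDUFA5, NDUFA6, NDUFA8, NDUFAF4, NDUFAF5, NDUFB4, NDUFS6 and NDUFS7. None of these 8 was called lower, against 15.2% of all 46 members and 5.54% of all tested genes. Of the 6 called genes with a window, 0 held the NRF1 letters, 2 the ETS letters, 1 the YY1 letters and 1 the E-box letters. Of all 39 members with a window, 8, 7, 8 and 4 held them, in the same order. Counts this small cannot show whether motifs and calls go together, which was not tested. A match is a run of letters in these windows, and binding was not measured.

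Transcripts of complex I were abundant and very unequal. The median over the 4 libraries was 173 TPM for the subunit genes and 44.9 TPM for the assembly factor genes, against 15.9 TPM for all 15651 tested genes, which are those with a mean of at least 1 TPM. All 46 members passed that filter, the lowest being NDUFAF6 at 19.9 TPM. NDUFA1, a small subunit of the membrane arm, was the highest at 1075 TPM, 54.1 times NDUFAF6. Of the 38 subunit genes 33 lay above the highest assembly factor gene, NDUFAF4 (109 TPM). The lowest subunit genes were NDUFV3 at 20.3 TPM and the core subunit NDUFS7, which stood between 34.51 and 40.13 TPM.

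The comparison sets the libraries labelled oeRNH1 against those labelled oeFlag. In the libraries labelled oeRNH1, 7 of the 46 were lower and 0 were higher, with changes of modest size. They were 6 subunit genes, among them NDUFV1, NDUFA13, NDUFA10, NDUFA11 and NDUFB3, and 1 assembly factor gene, NDUFAF8. Calls are at a limma adjusted p under 0.05, with Benjamini-Hochberg adjustment over all 15651 tested genes. Of all tested genes 5.54% were called lower and 6.3% higher by the same fit, so the members' share of lower calls (15.2%) lay above the background and their share of higher calls below it. Members are more abundant than most genes, and among the 6844 tested genes within their range of levels 7.96% were called lower and 9.69% higher. Without adjustment, 13 members had p under 0.05, of which 11 were lower. The 7 calls rest on small spreads between 2 libraries. With no filter on low values, and without the trend of variance on level, 0 of the 7 were called. The calls were also lost in the fits that leave out 1 library. All 7 fold changes stayed below 0 in the 15 alternatives run, but this was largely fixed in advance. Changing the filter, the trend, the robust variances or the replicate block does not alter a fold change. Leaving out 1 library cannot turn its sign either, because the groups of the 7 do not overlap.

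**Figure D1:**
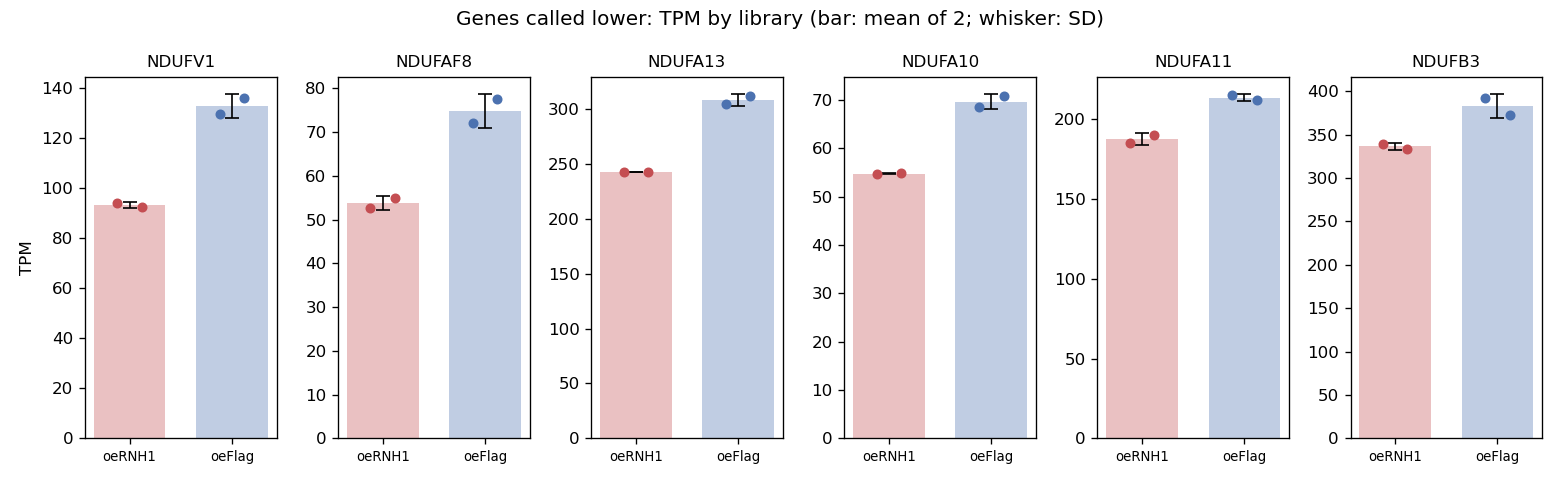
TPM (y axes from 0) of genes called lower, in order of their log2 fold change, for the 2 libraries labelled oeRNH1 (red, left) and the 2 labelled oeFlag (blue, right); points are libraries, bars means and whiskers SD. In each panel both red points lie below both blue points, with the lowest ratio in NDUFV1, which averaged 93.2 TPM under oeRNH1 and 133 TPM under oeFlag.

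NDUFV1, the core subunit that holds the flavin and binds NADH (chromosome 11, 67605653 to 67612554, plus strand, GENCODE 29 on GRCh38), had 94.06 and 92.26 TPM in the libraries labelled oeRNH1, against 129.39 and 136.01 TPM in those labelled oeFlag. It had the largest fall of the 46, 29.8%, with means of 93.2 ± 1.27 TPM under oeRNH1 and 133 ± 4.68 TPM under oeFlag (SD, n = 2 each) and a log2 fold change of -0.51 ± 0.05 (SE, limma adjusted p = 0.00903). Both of its oeRNH1 values lay below both oeFlag values.

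Core subunit genes that did not pass included NDUFV2, NDUFS1, NDUFS8, NDUFS7 and NDUFS3. NDUFV2, the partner of NDUFV1 with an iron-sulfur cluster of its own, had 163.73 and 168.91 TPM in the libraries labelled oeRNH1 and 174.23 and 177.31 TPM in those labelled oeFlag (log2 -0.08 ± 0.04, limma adjusted p = 0.268). NDUFS1, which carries several of the clusters of the peripheral arm, had 67.02 and 68.48 TPM under oeRNH1 and 69.97 and 70.21 TPM under oeFlag (log2 -0.05 ± 0.05). In these 2 genes and in NDUFS8 both oeRNH1 values lay below both oeFlag values, by small amounts. NDUFS8, a subunit with iron-sulfur clusters between NDUFS1 and NDUFS7 in the electron path, had 122.5 and 126.87 TPM in the libraries labelled oeRNH1 and 129.25 and 134.52 TPM in those labelled oeFlag (log2 -0.08 ± 0.05). NDUFS7, which holds the last cluster before ubiquinone, had 35.58 and 36.24 TPM under oeRNH1 and 34.51 and 40.13 TPM under oeFlag (log2 -0.05 ± 0.09). NDUFS3 had 155.59 and 153.32 TPM under oeRNH1 and 153.16 and 133.03 TPM under oeFlag (log2 0.11 ± 0.07), a fold change above 0. The 95% interval of the log2 fold change ran from -0.63 to -0.38 for NDUFV1 and from -0.18 to 0.03 for its partner NDUFV2, and the difference between the 2 genes was not tested.

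Accessory subunits of the peripheral arm were not called. NDUFV3, an accessory subunit of the NADH-binding end, had 19.56 and 18.18 TPM in the libraries labelled oeRNH1 and 21.78 and 21.76 TPM in those labelled oeFlag, and with a log2 fold change of -0.20 ± 0.08 it missed the threshold (limma adjusted p = 0.146). The remaining accessory subunits of this arm, NDUFA2, NDUFA5, NDUFA6, NDUFA7, NDUFA9, NDUFA12, NDUFS4 and NDUFS6, lay between -0.12 (NDUFA7) and 0.07 (NDUFA2). NDUFA9, whose level was 135.12 and 139.89 TPM under oeRNH1 and 137.61 and 137.13 TPM under oeFlag, had the fold change nearest to 0 (95% interval -0.11 to 0.11).

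The proximal membrane arm, the part next to the peripheral arm, had the largest share of calls, a ranking that rests on few genes and was not tested. Of its 9 subunit genes 3 were lower (33.3%, against 5.54% of all tested genes), 0 higher and 6 not called. All 9 fold changes lay below 0, against 49.4% of those of all tested genes, with a median of -0.13. NDUFA13, also known as GRIM-19, at the joint of the arms (chromosome 19, 19515736 to 19529054, plus strand), had 242.42 and 242.88 TPM in the libraries labelled oeRNH1 and 304.37 and 311.86 TPM in those labelled oeFlag. Its log2 fold change was -0.34 ± 0.04 (SE, limma adjusted p = 0.0106). NDUFA10, a subunit related to nucleoside kinases (chromosome 2, 239892450 to 240025402, minus strand), had 54.74 and 54.77 TPM under oeRNH1 and 68.61 and 70.69 TPM under oeFlag (log2 -0.34 ± 0.05, limma adjusted p = 0.0200). In both genes the gap between the groups was several times the difference within either group.

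NDUFA11, a membrane subunit that braces this part of the arm (chromosome 19, 5891276 to 5904006, minus strand), had 184.99 and 190.15 TPM in the libraries labelled oeRNH1 and 214.78 and 211.73 TPM in those labelled oeFlag (log2 -0.18 ± 0.04, limma adjusted p = 0.0424). Corrected for GC content, NDUFA11 no longer passed, with a log2 fold change of -0.086 (adjusted p = 0.225). NDUFA3 had 167.77 and 217.36 TPM in the libraries labelled oeRNH1 and 249.4 and 238.66 TPM in those labelled oeFlag. Its fold change was as large as that of NDUFA13, at log2 -0.35 ± 0.11, but its oeRNH1 libraries differed and it was not called (limma adjusted p = 0.0987). Without oeRNH1 replicate 1 it was -0.17 and without oeRNH1 replicate 2 -0.54. NDUFA1, NDUFA8, NDUFC1, NDUFC2 and NDUFS5 had fold changes from -0.13 (NDUFA1) to -0.07 (NDUFS5), and NDUFA1 had the smallest adjusted p of them, 0.0858, at 1029.68 and 1024.41 TPM under oeRNH1 and 1157.35 and 1089.08 TPM under oeFlag.

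The distal membrane arm, the tip with the NDUFB subunits, held fold changes of both signs. Of its 11 genes 1 was lower (9.09%, against 5.54% of all tested genes), 0 higher and 10 not called, with 6 fold changes below 0 and 5 above. NDUFB3 (chromosome 2, 201071433 to 201085750, plus strand) had 339.46 and 333.25 TPM in the libraries labelled oeRNH1 and 392.23 and 372.65 TPM in those labelled oeFlag (log2 -0.18 ± 0.04, limma adjusted p = 0.0435). NDUFB2 had the highest fold change of the 46, with 401.44 and 358.38 TPM under oeRNH1 and 333.05 and 331.07 TPM under oeFlag (log2 0.19 ± 0.06), and was not called (limma adjusted p = 0.0862). NDUFB5 and NDUFB11 also had both oeRNH1 values above both oeFlag values, at 0.17 ± 0.07 and 0.11 ± 0.05. NDUFB6 stood at the other end with NDUFB3, at -0.18 ± 0.06 and a limma adjusted p of 0.0869, and NDUFB1, NDUFB4, NDUFB7, NDUFB8, NDUFB9 and NDUFB10 lay between -0.13 and 0.06.

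The last 2 subunit genes were placed in no arm. NDUFAB1, the mitochondrial acyl carrier protein, which also serves fatty acid synthesis and iron-sulfur cluster assembly, had 309.53 and 315.55 TPM under oeRNH1 and 324.14 and 337.56 TPM under oeFlag (log2 -0.08 ± 0.04, limma adjusted p = 0.229). NDUFA4, named as a complex I subunit and since placed in cytochrome c oxidase, had 125.95 and 182.19 TPM in the libraries labelled oeRNH1 and 167.44 and 195.06 TPM in those labelled oeFlag, with overlapping groups (log2 -0.25 ± 0.17, limma adjusted p = 0.359).

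**Figure D2:**
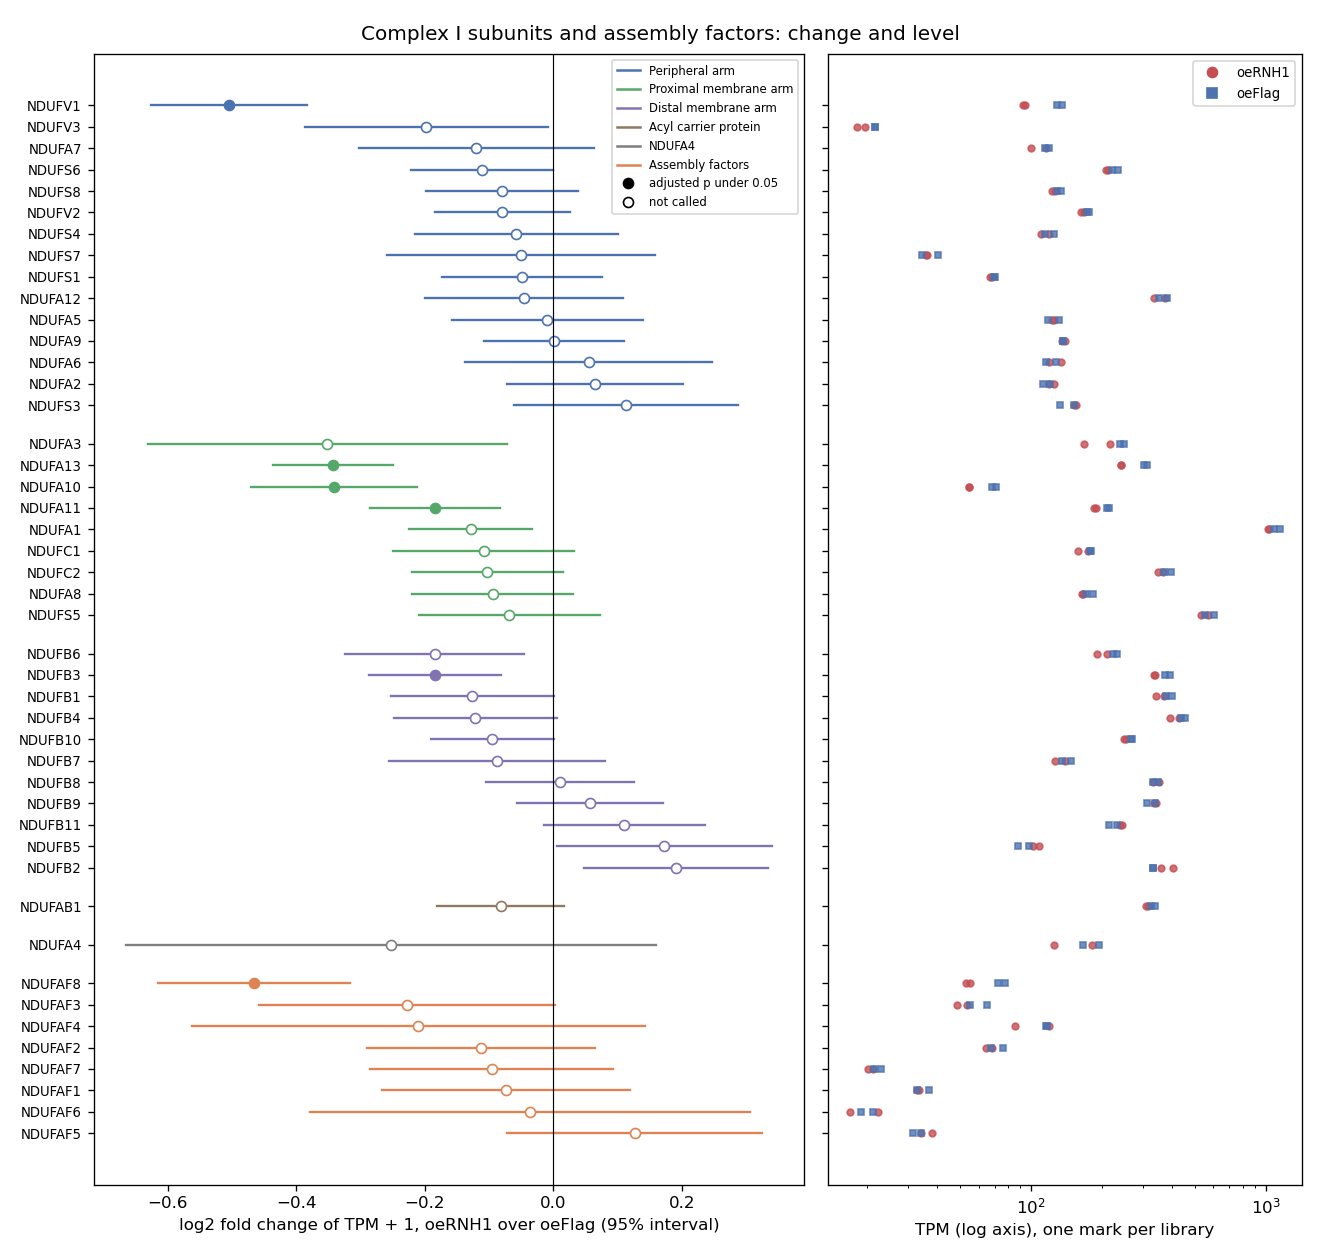
Left, log2 fold change of TPM + 1 (oeRNH1 over oeFlag) with its 95% limma interval for the genes reported, grouped by place in the enzyme; filled points have an adjusted p under 0.05. Right, TPM per library on a log axis, red circles oeRNH1 and blue squares oeFlag; the 9 proximal membrane arm genes all lie left of 0, and the 11 distal ones on both sides.

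Of the 8 assembly factor genes 1 was lower (12.5%, against 5.54% of all tested genes), 0 higher (against 6.3%) and 7 not called. NDUFAF8, which stabilises the factor NDUFAF5 (chromosome 17, 81239239 to 81241281, plus strand), had 52.73 and 54.99 TPM in the libraries labelled oeRNH1 and 72.12 and 77.5 TPM in those labelled oeFlag. It had the second largest fall of the 46, 28.0%, with means of 53.9 ± 1.60 TPM under oeRNH1 and 74.8 ± 3.80 TPM under oeFlag (SD, n = 2 each) and a log2 fold change of -0.47 ± 0.06 (SE, limma adjusted p = 0.0149). NDUFAF5, the enzyme that hydroxylates an arginine of NDUFS7, had 33.93 and 37.85 TPM under oeRNH1 and 34.04 and 31.48 TPM under oeFlag (log2 0.13 ± 0.08, limma adjusted p = 0.340). The groups of NDUFAF5 overlapped, the 95% interval of its log2 fold change ran from -0.07 to 0.33, and its difference from NDUFAF8 was not tested. After GC correction it stood at 0.064, and without oeRNH1 replicate 2 at 0.050.

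NDUFAF7, a methyltransferase that acts on a core subunit, had 20.17 and 21.23 TPM in the libraries labelled oeRNH1 and 21.51 and 22.88 TPM in those labelled oeFlag (log2 -0.10 ± 0.08). NDUFAF3 and NDUFAF4 act together early in the assembly of the peripheral arm. NDUFAF3 had 48.48 and 53.54 TPM under oeRNH1 and 55.09 and 64.99 TPM under oeFlag (log2 -0.23 ± 0.09, limma adjusted p = 0.164). NDUFAF4 had 85.24 and 119.17 TPM in the libraries labelled oeRNH1 and 116.97 and 116.51 TPM in those labelled oeFlag (log2 -0.21 ± 0.14, limma adjusted p = 0.372). Its groups overlapped, and oeRNH1 replicate 1 alone was low.

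NDUFAF1, a factor for the membrane arm, had 32.65 and 33.31 TPM in the libraries labelled oeRNH1 and 32.69 and 36.97 TPM in those labelled oeFlag (log2 -0.07 ± 0.08). NDUFAF2, a relative of the subunit NDUFA12 that takes its place during assembly, had 64.25 and 68.49 TPM under oeRNH1 and 75.97 and 67.86 TPM under oeFlag (log2 -0.11 ± 0.07). NDUFAF6 had 16.91 and 22.43 TPM under oeRNH1 and 18.89 and 21.19 TPM under oeFlag (log2 -0.04 ± 0.14). None of the 3 passed, and in each the groups overlapped.

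Set side by side, assembly factors and subunits had similar medians. The median log2 fold change was -0.10 for the 8 assembly factor genes and -0.09 for the 38 subunit genes, against 0.00 for all tested genes, and 12.5% of the assembly factor genes and 15.8% of the subunit genes were called lower. Ranges ran from -0.47 to 0.13 for assembly factors and from -0.51 to 0.19 for subunits. Fold changes lay below 0 in 7 of 8 assembly factor genes and in 29 of 38 subunit genes, against 49.4% of all tested genes. These are counts and medians with no test of the lists. The median of the assembly factors was -0.19 without oeRNH1 replicate 2 and -0.060 without oeRNH1 replicate 1, and that of the subunits kept between -0.069 and -0.10 when any 1 library was left out.

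Both oeRNH1 values lay below both oeFlag values in 24 of the 46 genes, against 29.4% of all tested genes, and above them in 4, against 31.3%. Among the 6844 tested genes within the members' range of levels they lay below in 2067 and above in 2566. Of the 24, 21 were subunit genes and 3 assembly factor genes, and all 4 above were subunit genes. Summed over the 38 subunit genes, transcripts made up 8546 and 8633 TPM in the libraries labelled oeRNH1 and 9220 and 9072 TPM in those labelled oeFlag. Summed over the 8 assembly factors they made up 354 and 411 TPM under oeRNH1 and 427 and 439 TPM under oeFlag. Both sums were lower in each library labelled oeRNH1 than in either library labelled oeFlag. The 2 libraries of a group differed by a median of 0.06 (oeRNH1) and 0.08 (oeFlag) on the log2 scale over the members. Their median absolute log2 fold change was 0.11, which is a difference between means of 2 libraries and not between single libraries. Replicates differed by more than 25% in 4 members in the libraries labelled oeRNH1, NDUFA3, NDUFA4, NDUFAF4 and NDUFAF6, each lower in replicate 1, and in 0 members in those labelled oeFlag.

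Transcript GC content moved with these values. Across all tested genes fold changes fell with the GC content of the longest transcript (Spearman's rho -0.22 over 15323 genes), and rho was -0.23 over the 46 members. These points come from the same 4 libraries and are given as a description. The median GC content was 59.4% for the 7 called genes and 47.2% for the 39 others. Of tested genes with a GC content of 60% or more, 11.4% were called lower, and of the 7 members there 3 were, NDUFA13, NDUFAF8 and NDUFA11. NDUFS7 and NDUFB7, at 60.8% and 65.0%, did not pass. After a spline correction for GC content 6 of the 7 calls held, with log2 fold changes of -0.44 for NDUFV1, -0.36 for NDUFAF8 and NDUFA10, -0.25 for NDUFA13 and -0.23 for NDUFB3 among them. The medians after that correction were -0.13 for assembly factors and -0.087 for subunits.

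**Figure D3:**
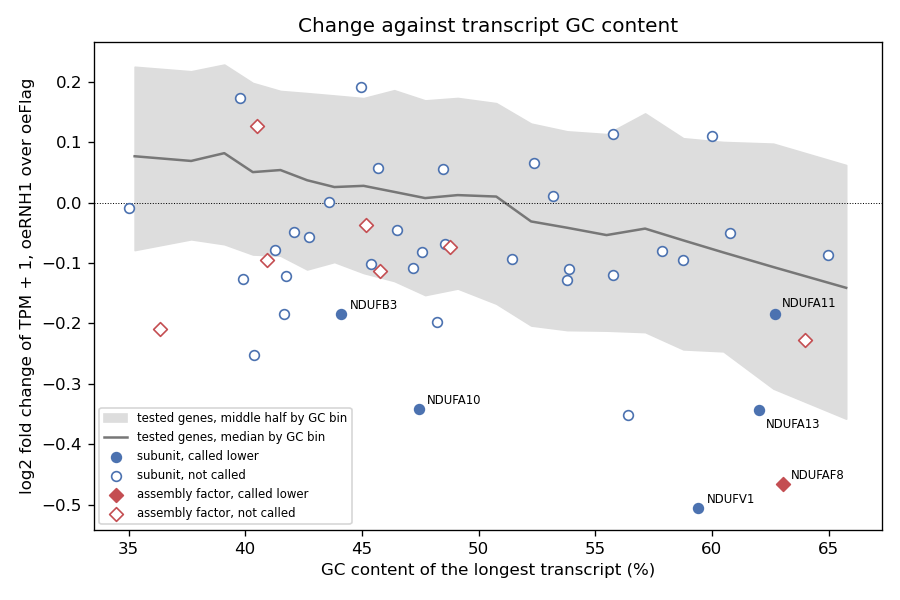
Log2 fold change of TPM + 1 (oeRNH1 over oeFlag) against the GC content of the longest transcript for subunit genes (circles) and assembly factor genes (diamonds), filled where called lower; the grey line and band are the median and middle 50% of tested genes in 20 GC bins. Called NDUFV1, NDUFAF8 and NDUFA10 lie well below the band, and the grey line itself slopes down.

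Several members share sequence with other loci, and whether reads were counted by strand is not stated. Exons of NDUFV1 overlap 2 other annotated genes, by 423 bases on the same strand and 207 on the opposite strand. Those of NDUFA13 overlap YJEFN3 and another protein-coding gene by 131 and 437 bases on the same strand, those of NDUFA11 overlap another by 467 bases on the same strand, and NDUFB3 shares 218 bases with FAM126B on the opposite strand. Of the called genes NDUFA10 and NDUFAF8 have no such overlap, and none of the 7 has a pseudogene named after it in GENCODE 29. NDUFA5 and NDUFB4 have 12 each, NDUFS5 has 6, NDUFA3 has 5 and NDUFAF4 has 4, and their values are uncertain. Members that were not called also overlap other genes, and only some are named here. On the opposite strand, NDUFAF3 shares exon sequence with DALRD3 and NDUFB2 with BRAF. RBM10 on that strand covers 44.9% of the exon length of NDUFB11, and RNF113A covers 44.5% of that of NDUFA1. On the same strand, NDUFS3 overlaps PTPMT1 and NDUFB8 overlaps another protein-coding gene. Of 6 other NDUF symbols outside the set, NDUFA6-DT, NDUFB2-AS1, NDUFC2-KCTD14 and NDUFV2-AS1 reached 1 TPM on average and none was called. The highest of them, NDUFA6-DT, had 6.01 and 7.23 TPM under oeRNH1 and 7.69 and 7.18 TPM under oeFlag.

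Of 13 further assembly factors of complex I not named NDUFAF, 10 were not called, and the median log2 fold change of the list was -0.06. Among the 13, 2 were lower (15.4%, against 5.54% of all tested genes) and 1 was higher (7.69%, against 6.3%). DMAC1, a factor for the distal membrane arm, had 10.66 and 9.93 TPM in the libraries labelled oeRNH1 and 16.99 and 15.74 TPM in those labelled oeFlag (log2 -0.62 ± 0.09, limma adjusted p = 0.0188). TIMMDC1, a factor for the proximal membrane arm, fell by 0.35 ± 0.08 on the log2 scale (limma adjusted p = 0.0449). TMEM70, which serves ATP synthase as well as complex I, rose, with 62.88 and 64.88 TPM under oeRNH1 and 52.35 and 52.87 TPM under oeFlag (log2 0.28 ± 0.05, limma adjusted p = 0.0329).

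Of 15 genes that supply iron-sulfur clusters 12 were not called, 2 were lower (13.3%, against 5.54% of all tested genes) and 1 was higher (6.67%, against 6.3%), with a median log2 fold change of -0.07. LYRM4, which stabilises the cysteine desulfurase NFS1, had 28.56 and 27.15 TPM in the libraries labelled oeRNH1 and 38.47 and 41.89 TPM in those labelled oeFlag (log2 -0.51 ± 0.07, limma adjusted p = 0.0171). BOLA3, a late-acting cluster factor, fell by 0.26 ± 0.06 on the log2 scale, and the co-chaperone HSCB rose by 0.26 ± 0.06 (limma adjusted p = 0.0388 and 0.0458). Of 9 regulators of respiratory chain genes, 7 were not called, and the median log2 fold change was 0.01, with 5 of the 9 above 0. Among them 1 was lower (11.1%, against 5.54% of all tested genes) and 1 was higher (11.1%, against 6.3%). The coactivator PPARGC1B had 5.18 and 5.08 TPM under oeRNH1 and 8.74 and 8.79 TPM under oeFlag (log2 -0.67 ± 0.11, limma adjusted p = 0.0217), and the mitochondrial transcription factor TFAM had 113.59 and 116.18 TPM under oeRNH1 and 94.27 and 94.93 TPM under oeFlag (log2 0.28 ± 0.05, limma adjusted p = 0.0232). NRF1, GABPA and YY1, whose motifs are marked in the sequences above, had log2 fold changes of 0.03 ± 0.08, 0.15 ± 0.06 and 0.01 ± 0.07 and were not called.

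Of 40 nuclear genes for complexes II to V, 7 were lower, 1 higher and 32 not called, and their median log2 fold change of -0.13 was below the -0.09 of the complex I subunits. ATP5MC1, a c-ring subunit of ATP synthase, had 140.53 and 147.75 TPM in the libraries labelled oeRNH1 and 218.05 and 211.84 TPM in those labelled oeFlag (log2 -0.57 ± 0.05, limma adjusted p = 0.00683), a change the size of that of NDUFV1. Lower calls made up 17.5% of this list and 15.8% of the complex I subunits, against 5.54% of all tested genes. Higher calls made up 2.5% of this list, against 6.3% of all tested genes. ATP5F1A fell by 0.20 and COX6A1 rose by 0.18 on the log2 scale (limma adjusted p = 0.0291 and 0.0336).

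**Figure D4:**
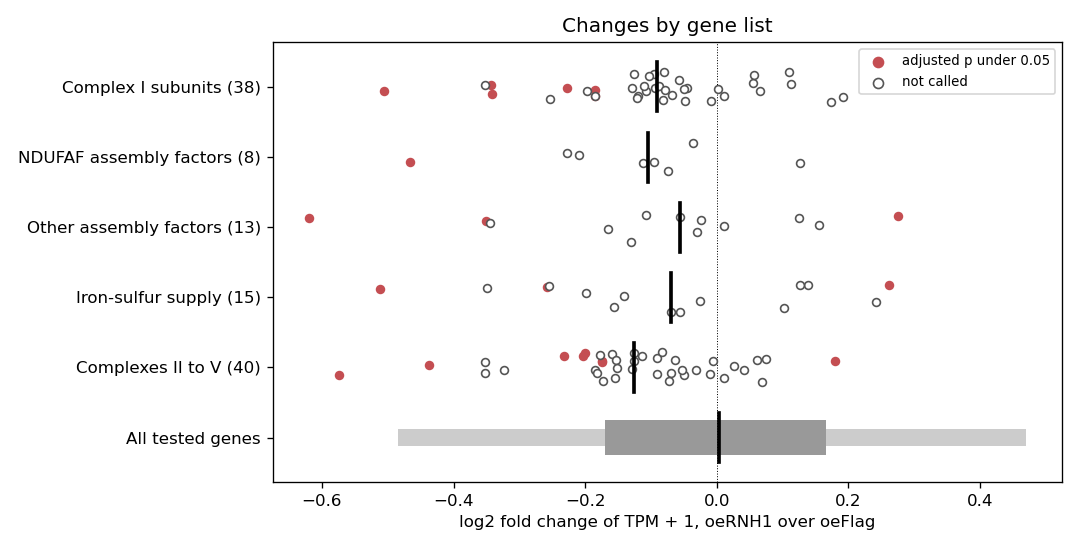
Log2 fold change of TPM + 1 (oeRNH1 over oeFlag) for each gene of 5 lists, with red points for an adjusted p under 0.05, open points for genes not called and a black bar at each median; the bottom row gives the median of all 15651 tested genes with bars from the 25th to the 75th (dark) and the 5th to the 95th percentile (light). The 5 medians drawn lie left of 0, from -0.06 for the other assembly factors to -0.13 for complexes II to V, and the 9 regulators, with a median of 0.01, are not drawn.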

How the data were processed

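RNA was measured in HEK293T cells in 2 libraries labelled oeRNH1 and 2 labelled oeFlag. Per the labels' protocols, TRIzol served for extraction of RNA and a Vazyme VAHTS kit for mRNA libraries. The authors deposited 1 table of TPM with a column per library, and per the submitters' processing notes STAR and hg38 were used. Not given in the sources used here: versions, quantifier, annotation and strand setting. TPM keeps no depth, so no counting interval was computed.

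The 15651 genes averaging 1 TPM or more were compared as log2(TPM + 1) with limma 3.58.1 in R 4.3.3 (group term, variances with an intensity trend, two-sided), with Benjamini-Hochberg adjusted p over all of them. Fold changes understate those of low genes slightly. The fit was tested on simulated data.

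The members and lists were chosen with earlier results of these data known. Named were all called members, all assembly factors, all nuclear core subunits, members nearest to a call (NDUFA1, NDUFB2, NDUFB6, NDUFA3) and up to 3 genes of each further list by p. Values of NDUFV3, NDUFA9, NDUFA4, NDUFAB1, NDUFB5, NDUFB11 and YY1 and NRF1 were added after they were seen. Gene models, GC content and pseudogene names came from GENCODE 29 on GRCh38, with GC content for 97.9% of tested genes. Promoters came from RefSeq. A called member is counted in totals and not reported here by name. The 15 alternatives were no filter, a 5 TPM minimum, pseudocounts of 0.1 and 5, quantile and median-of-ratios scaling, no trend, robust variances, a replicate block, each library left out, and GC or GC and length correction (splines with 4 degrees of freedom). Figures used matplotlib 3.10.9.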

Additional observations from a re-analysis of the deposited data

How the results depend on the processing

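The 7 called members were called again, in the same direction, with pseudocounts of 0.1 and 5, a minimum of 5 TPM, quantile and median-of-ratios scaling, robust variances and the replicate block, and 6 of the 7 after GC correction and after GC and length correction. With no filter on low values, calls over all genes were 0 higher and 0 lower (5655 of 28206 genes at an unadjusted p under 0.05), and with no intensity trend 1 higher and 0 lower (4337 genes), and calls among subunits and assembly factors were then 0 lower. Leaving out 1 library, a fit in which the lone library is assumed to vary like the other group, gave 0 to 10 calls higher and 0 to 5 lower over all genes, and 0 lower among both subunits and assembly factors, with 3367 to 4035 genes at an unadjusted p under 0.05. The cause was not tested. The median log2 fold change ran from -0.19 to -0.060 for the assembly factors and from -0.11 to -0.069 for the subunits over the alternatives, both ends for the assembly factors coming from leaving out an oeRNH1 library, and the median of all genes lay between -0.011 and 0.014.

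The replicate numbers did not pair the libraries by the measure used, since the replicate 1 minus 2 differences correlated at 0.031 between groups. With the replicate block, 1 subunit gene was called higher, NDUFB2, and NDUFA3 and NDUFB6 were also called lower.

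Signs turned only in members that were not called. In the called members both oeRNH1 values lay below both oeFlag values, so leaving out 1 library could not turn a sign. After GC correction NDUFA9 stood at -0.044, NDUFB7 at 0.036 and NDUFS7 at 0.028, and after GC and length correction NDUFB7 at 0.016, NDUFB9 at -0.00086 and NDUFS7 at 0.065. NDUFA9 stood at -0.017 with quantile normalization and at -0.015 with median-of-ratios scaling, where NDUFB8 stood at -0.0054. With 1 library left out, log2 fold changes ran from -0.12 to 0.028 for NDUFA12, from -0.52 to 0.012 for NDUFA4, from -0.081 to 0.063 for NDUFA5, from -0.034 to 0.14 for NDUFA6, from -0.024 to 0.026 for NDUFA9, from -0.16 to 0.012 for NDUFAF1, from -0.45 to 0.029 for NDUFAF4, from -0.23 to 0.16 for NDUFAF6, from -0.032 to 0.053 for NDUFB8, from -0.12 to 0.0060 for NDUFS4 and from -0.16 to 0.056 for NDUFS7.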
